A study of Caenorhabditis elegans with 8 samples.

Results

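Hermaphrodite Caenorhabditis elegans of strain N2, the laboratory wild type, received RNA interference (RNAi) aimed at vab-3 in 2 forms, and both are treated here as 1 group of 6 whole-worm libraries. Isoform A is the labelled target in 3 of them and isoform C in the other 3, and they were set against 2 control libraries, numbered 1 and 3, from worms on the empty RNAi vector L4440. All 8 libraries of the series were used. Treatment began in synchronized young adults and the worms were collected at 5 days of adulthood, and the labels give no other allele or agent. Genes were chosen by position alone: a gene was counted where all 6 RNAi libraries lay above both controls, or all 6 below both. Of 14772 genes tested, 1059 (7.17%) lay above both controls and 1282 (8.68%) below both, together 2341 (15.8%). Were all 28 splits of 8 libraries into 6 and 2 equally likely, a gene would take one of these positions with a probability of 0.0714. Part of the 2341 genes would thus be counted without any effect of the RNAi, and the counts were not tested against that share.

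vab-3 encodes the worm counterpart of Pax6, a transcription factor with a paired domain and a homeodomain. Some vab-3 transcripts make a shorter protein that lacks the paired domain. In larvae the gene is known for patterning the head epidermis and nervous system and for guiding the gonad's distal tip cells, in which it acts on the integrin genes ina-1 and pat-2. In feeding RNAi, worms take up double-stranded RNA from bacteria and destroy transcripts that match it.

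Levels are given as CPM, a gene's count scaled to its library's total after TMM normalization. The libraries held 30289733 to 43364047 counts. On the first principal component, with 54.4% of the variance, the positions were 64.6 and 54.7 for isoform A libraries 2 and 3 and ran for the other 6 between -40 and 1.06. Markers of every cell type looked at were detected, except that mir-228 of glia was at 0 in all 8 libraries. The summed CPM of 6 germline and oocyte markers ran from 5430 to 5720 in the RNAi libraries, against 5790 to 5980 in the controls, and that of 5 body wall muscle markers from 517 to 1590, against 419 to 540. For 6 neuronal markers the range was 57.3 to 83.9 in the RNAi libraries, against 49.6 to 59.2 in the controls. For 5 sperm markers it was 4.20 to 13.8, against 3.82 to 4.10, and for 4 markers of the spermatheca and somatic gonad 10.3 to 17, against 9.44 to 10.1. The germline, sperm and somatic gonad sums did not overlap between the groups, and the muscle and neuronal sums did. In the sperm sum, spe-41 alone had 2.71 and 2.76 CPM in controls and 3.02 to 4.9 CPM in RNAi libraries. Major sperm protein genes had medians against the control mean of -0.21 in isoform A library 1 and -0.46 in isoform C library 1. Both lay below the controls, so these sperm genes were not higher in all 6 RNAi libraries. In whole-worm RNA, fewer cells of a type and less RNA per cell cannot be told apart. No label tells if replicates are separate cultures, and the p-values cover only the spread among these samples, part of which may be technical.

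The targeted gene was not lower in the RNAi libraries. vab-3 (chromosome X, 10499890 to 10519580, build WBcel235) stood at 4.43, 5.52 and 4.38 CPM in the libraries labelled isoform A and at 4.08, 2.04 and 4.84 CPM in those labelled isoform C, against 2.23 and 2.12 CPM in the controls. Library 2 of isoform C fell below both controls and the other 5 above them, so the groups overlapped and vab-3 is not among the shared genes. The log2 difference was 0.95 ± 0.33 (SE), which did not pass edgeR's quasi-likelihood test (adjusted p = 0.472). The counts cover the whole gene and do not separate isoforms or, since the library kit does not mark strand, reads of either strand. The directions given below therefore rest on the labels.

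3 genes rose past the test in the 6 RNAi libraries, and all 3 were higher in each of them than in either control. They were aman-1, which encodes a lysosomal alpha-mannosidase that trims mannose from glycoproteins under degradation, vet-2, of a class named for transcripts that appear very early in embryos, and F55B11.3, a protein-coding gene with no name beyond its sequence identifier. They made up 0.0203% of the 14772 genes at an adjusted p of 0.05, and 0 genes passed in the lower direction. At an unadjusted p of 0.05, 753 genes (5.1%) were higher and 736 (4.98%) lower in edgeR. DESeq2 called 153 higher and 14 lower, and limma-voom called 0.

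aman-1 (WBGene00018877, chromosome X, 4733095 to 4738592, plus strand) had 15, 16.4 and 13.8 CPM in isoform A libraries and 18.5, 15.5 and 17.5 CPM in isoform C libraries, against 6.09 and 4.81 CPM in controls. The groups did not overlap, and even the lowest RNAi library was more than 2-fold above the higher control. The mean was 16.1 ± 1.72 CPM (SD, n = 6) in RNAi worms and 5.45 ± 0.903 CPM (SD, n = 2) in control worms, a log2 difference of 1.56 ± 0.15 (SE) or 2.95-fold (edgeR adjusted p = 0.0376). In a model with 3 groups, isoform A differed from the same controls by 1.46 ± 0.15 (edgeR adjusted p = 0.0799), where 0 of all genes (0%) passed. Isoform C differed by 1.65 ± 0.15 (edgeR adjusted p = 0.0135), where 14 genes (0.0948%) passed.

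vet-2 (WBGene00016453, chromosome I, 10846772 to 10850103, plus strand) had 48.1, 46.1 and 49.5 CPM in isoform A libraries and 53, 54.8 and 50.6 CPM in isoform C libraries, against 31.6 and 26.9 CPM in controls. The 3 isoform C libraries were the highest of the 8. Its log2 difference was 0.78 ± 0.09 (SE), or 1.72-fold (edgeR adjusted p = 0.0477). F55B11.3 (WBGene00010085, chromosome IV, 14424696 to 14425569, plus strand) had 44.6, 48.7 and 45 CPM in isoform A libraries and 48.2, 48.4 and 44.6 CPM in isoform C libraries, against 30.3 and 31.5 CPM in controls. The 6 RNAi values lay close together, and the 2 controls likewise. Its log2 difference was 0.59 ± 0.06 (SE), or 1.51-fold (edgeR adjusted p = 0.0477). All 3 calls were lost, with 0 genes called, when any single library other than number 2 of isoform A was left out, with adjusted p up to 0.784. With isoform A libraries 2 and 3 both left out, aman-1 and vet-2 passed. With the replicate number as a block in the fit, 0 genes passed.

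**Figure D1:**
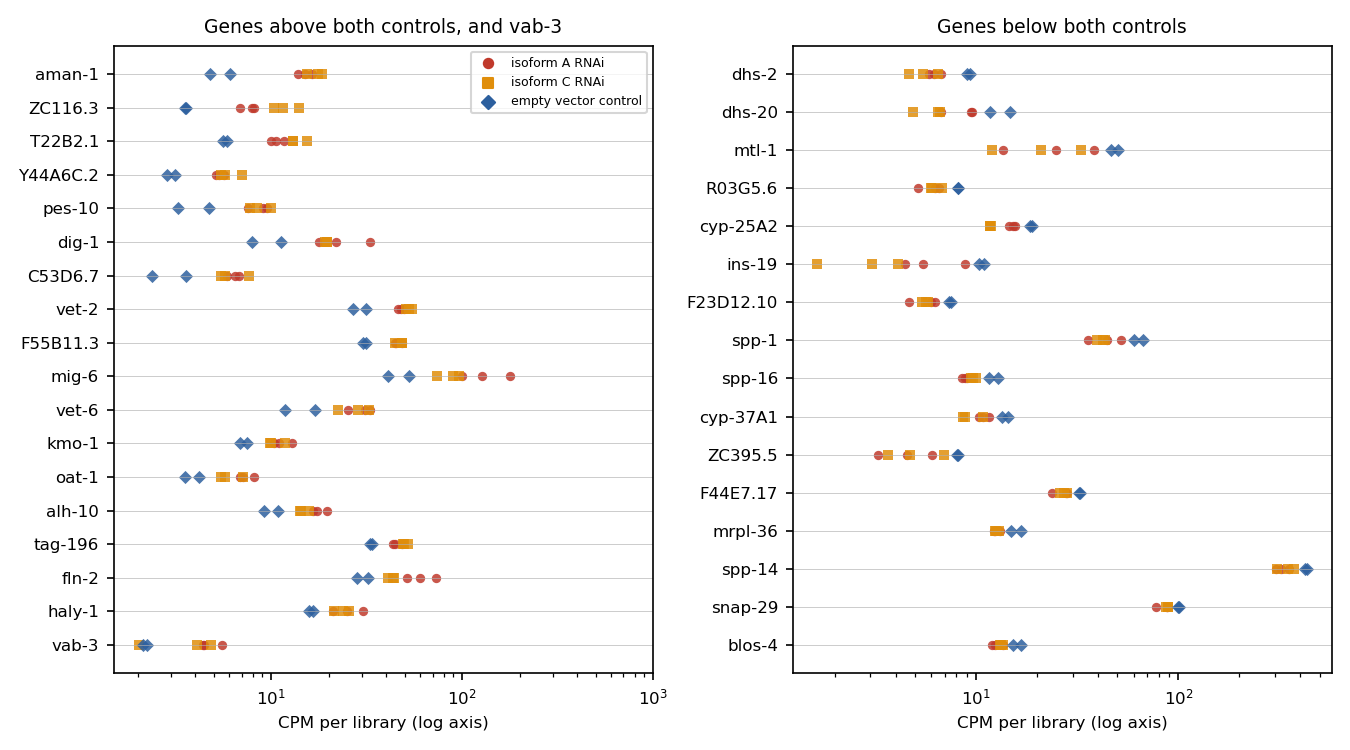
CPM in each library, on a log axis, for vab-3, for genes past the test and for genes chosen by the gap between the nearest RNAi and control libraries. Isoform A libraries are circles, isoform C libraries squares and controls diamonds. Apart from vab-3, where isoform C library 2 at 2.04 CPM lies below both controls, every row has all 6 RNAi symbols on one side of both diamonds.

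Most shared genes stood only just clear of the controls. The gap is the log2 distance between the nearest RNAi and the nearest control library, and its median was 0.0882 for genes above the controls and 0.0417 for genes below them. Of the 2341 shared genes, 1090 (46.6%) had a gap under 0.05. A gap of at least 1.2-fold was present for 180 genes above (1.22% of all tested) and 27 below (0.183%). The fitted log2 differences had a median of 0.42 for the genes above and of -0.18 for the genes below, and 136 and 14 of them exceeded 2-fold. The genes above were also less abundant, with a median level of 8.79 CPM, against 50.7 CPM for the genes below. The part of abundance in this contrast was not tested. The smallest gap among shared genes was 3.1e-06 log2 and the 10th smallest was 0.000581, while the 10th closest gene outside the set overlapped by 0.00016 log2.

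**Figure D2:**
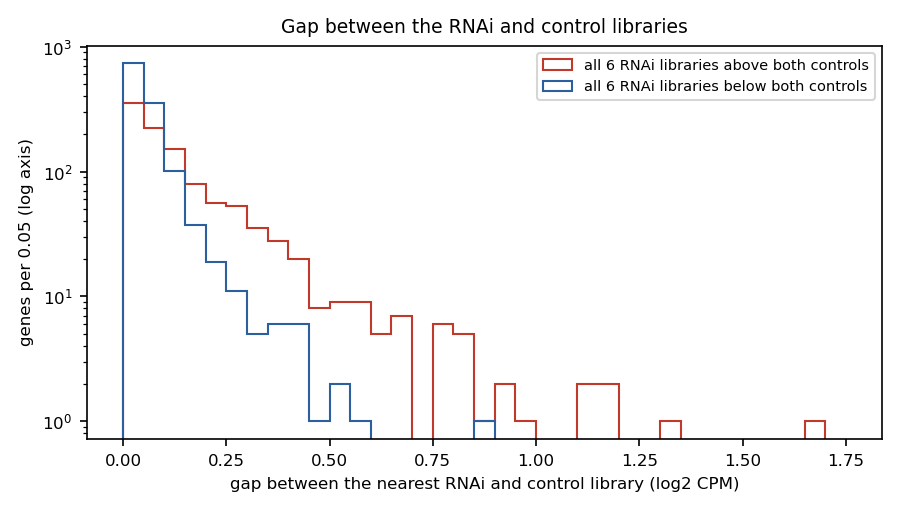
Number of shared genes by the gap between the nearest RNAi and control library, in steps of 0.05 log2 CPM, with the count on a log axis. Genes above both controls (median gap 0.0882) reach farther to the right than genes below both controls (median gap 0.0417).

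Among genes with a mean of at least 5 CPM, ZC116.3 and T22B2.1 had the widest gaps above the controls after aman-1. None of the genes named in this and the next paragraph passed the test (edgeR adjusted p from 0.241 to 0.457). ZC116.3 is named cubn-1 in the Ensembl annotation, after cubilin, an endocytic receptor in mammals. Its CPM was 6.91, 8.18 and 7.9 in isoform A and 14, 11.5 and 10.3 in isoform C libraries, against 3.57 and 3.55 in controls. Each isoform C library was above each isoform A library. Its gap was 0.95 and its log2 difference 1.46 ± 0.28 (SE). T22B2.1 showed the same order, with 10.6, 9.94 and 11.7 CPM in isoform A libraries and 13, 15.5 and 13 CPM in isoform C libraries, against 5.85 and 5.61 CPM in controls (log2 difference 1.1 ± 0.18). The cathepsin-type cysteine protease gene tag-196 had 43.7, 48.6 and 44.6 CPM under isoform A RNAi and 49.6, 48.8 and 52 CPM under isoform C RNAi, against 33.8 and 33.1 CPM in controls (log2 difference 0.52 ± 0.08). ZC116.3, T22B2.1 and tag-196 passed in a model that keeps the 3 labelled groups and contrasts the mean of both RNAi groups with the controls.

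Of the genes with wide gaps, dig-1 and mig-6 of the extracellular matrix stood highest in isoform A library 2. dig-1, which encodes a giant matrix protein that holds neurons and gonad in place, had 17.8, 33.1 and 21.8 CPM in isoform A libraries and 19.7, 19.7 and 19.2 CPM in isoform C libraries, against 7.94 and 11.3 CPM in controls. mig-6, the gene for papilin, a matrix protein needed for distal tip cell migration, had 99.9, 177 and 128 CPM in isoform A libraries and 89.5, 96.8 and 73.9 CPM in isoform C libraries, against 41 and 52.6 CPM in controls. Their log2 differences were 1.19 ± 0.26 and 1.24 ± 0.34 (SE). The filamin gene fln-2, whose protein crosslinks actin, had 51.4, 72.7 and 60.3 CPM in isoform A libraries and 43.6, 43.8 and 41.1 CPM in isoform C libraries, against 32 and 28.1 CPM in controls. All 3 isoform A values of fln-2 lay above all isoform C values. Log2 differences were 0.61 ± 0.13 for kmo-1, the kynurenine 3-monooxygenase of tryptophan breakdown, 0.60 ± 0.14 for haly-1, histidine ammonia-lyase, 0.70 ± 0.14 for alh-10, an aldehyde dehydrogenase, and 0.80 ± 0.18 for oat-1, an organic anion transporter. For the undescribed genes Y44A6C.2 and C53D6.7 they were 0.93 ± 0.16 and 1.08 ± 0.20.

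Below the controls, among genes with a mean of at least 5 CPM, dhs-2, dhs-20 and mtl-1 had the widest gaps, and no gene passed (edgeR adjusted p from 0.399 to 0.484 for the genes named here). dhs-2, a short-chain dehydrogenase gene, had 6.7, 5.83 and 6.18 CPM in isoform A libraries and 6.47, 5.46 and 4.67 CPM in isoform C libraries, against 9.29 and 9 CPM in controls. Its gap of 0.42 was the widest of the genes of at least 5 CPM on this side, and its log2 difference was -0.64 ± 0.15 (SE). The related dhs-20 had 9.47, 6.69 and 9.55 CPM in isoform A libraries and 6.65, 4.85 and 6.51 CPM in isoform C libraries, against 14.8 and 11.7 CPM in controls (log2 difference -0.86 ± 0.24). mtl-1, an intestinal metallothionein that binds metals, had 24.8, 13.6 and 38.5 CPM in isoform A libraries and 21, 12 and 33.1 CPM in isoform C libraries, against 50.6 and 46.6 CPM in controls. Within both RNAi groups library 2 was the lowest and library 3 the highest for mtl-1, and the spread among the 6 exceeded the gap of 0.28. ins-19, an insulin-like peptide gene, had 5.47, 4.45 and 8.8 CPM in isoform A libraries and 1.64, 4.12 and 3.05 CPM in isoform C libraries, against 10.3 and 10.9 CPM in controls. Every isoform C value of ins-19 lay below every isoform A value.

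Among the saposin-like genes, whose proteins act on membranes and include antimicrobial peptides, spp-1 had 44.2, 35.8 and 52.2 CPM in isoform A libraries and 43.3, 39.7 and 42.5 CPM in isoform C libraries, against 66.7 and 60.6 CPM in controls (log2 difference -0.57 ± 0.12). spp-14 averaged 334 CPM in RNAi libraries, against 429.5 CPM in controls, and spp-16 differed by -0.40 ± 0.10. These 3 were named by the rule for genes below both controls, so their shared direction was set by that choice. spp-22, of the same class but at a mean of 1.77 CPM, lay above both controls with a wider gap of 0.38. Its log2 difference was 0.77 ± 0.23 (edgeR adjusted p = 0.467). The P450 genes cyp-25A2 and cyp-37A1 differed by -0.47 ± 0.14 and -0.45 ± 0.13. Smaller differences with a gap were those of mrpl-36, a mitochondrial ribosomal protein gene, at -0.32 ± 0.08, of blos-4, for a subunit of a complex in lysosome-related organelle formation, at -0.30 ± 0.09, and of snap-29, for a membrane fusion protein, at -0.22 ± 0.06. The undescribed genes R03G5.6, F23D12.10 and ZC395.5 differed by -0.40, -0.40 and -0.73, and the pseudogene F44E7.17 by -0.27.

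Gene lists by function are given by their counts and medians, beside those of all 14772 genes tested, of which 7.17% lay above and 8.68% below both controls, with a median log2 difference of 0.01. Besides vet-2 and aman-1, no member of any of the 43 lists passed the test. The lists and their members were chosen with earlier results of these data known, so their shares only describe these libraries. Of 41 early embryonic vet, pes and sdz genes, 12 (29.3%) lay above both controls and 0 below, with a median log2 difference of 0.41, and 39 of the 41 fitted differences were above 0. Those above were vet-1, vet-2, vet-6, pes-5, pes-7, pes-10, sdz-4, sdz-19, sdz-21, sdz-29, sdz-31 and sdz-33. The list's median against the control mean was 0.53, 0.37 and 0.42 in the isoform A libraries and 0.45, 0.35 and 0.21 in the isoform C libraries, against 0.09 and -0.09 in the controls, so all 6 RNAi libraries stood above both controls. pes-10 had 7.54, 9.52 and 9.06 CPM in isoform A libraries and 7.72, 10.03 and 8.41 CPM in isoform C libraries, against 3.25 and 4.75 CPM in controls. vet-6 had 33, 31.1 and 25.3 CPM in isoform A libraries and 32.6, 28.5 and 22.5 CPM in isoform C libraries, against 17 and 11.8 CPM in controls. The log2 differences of pes-10 and vet-6 were 1.13 ± 0.19 and 1.00 ± 0.19 (edgeR adjusted p = 0.243 and 0.348).

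Genes for lysosomal degradation were not uniformly higher. Of 48 lysosomal hydrolase and protease genes, 6 (12.5%) lay above both controls and 3 (6.25%) below, with a median log2 difference of 0.06. Next to aman-1 and tag-196, the glucosylceramidase gene gba-2 lay below, at 3.45, 2.11 and 3.32 CPM in isoform A libraries and 2.71, 2.37 and 1.38 CPM in isoform C libraries, against 5.96 and 4.52 CPM in controls (edgeR adjusted p = 0.457). Of 21 genes for the vacuolar proton ATPase, which acidifies lysosomes and also serves secretion in the epidermis, 5 lay above (23.8%) and 1 below (4.76%), with a median of 0.12. vha-5, for a membrane subunit, had 48.9, 78.8 and 49.3 CPM in isoform A libraries and 40.8, 42.6 and 34.5 CPM in isoform C libraries, against 32.8 and 27 CPM in controls. The list's median in isoform C library 3 was -0.07, below both controls at -0.01 and 0.01.

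The median differences of genes for collagen processing, synapses and muscle were above 0, and larger for isoform A than for isoform C against the same controls, although no member passed. Of 20 genes that modify or secrete collagen, 8 lay above (40%) and 1 below (5%), with a median of 0.23. They include dpy-18, for a prolyl 4-hydroxylase subunit, at 40.7, 44.3 and 45.9 CPM in isoform A libraries and 36.2, 37.1 and 32.7 CPM in isoform C libraries, against 28.8 and 26.2 CPM in controls, and bli-3 and dpy-31, for the dual oxidase that crosslinks cuticle and for a procollagen protease. Of 36 neuronal synaptic release genes, 10 (27.8%) lay above and 1 (2.78%) below, with a median of 0.35. unc-25, for the enzyme that makes the transmitter GABA, had 4.34, 6.18 and 4.84 CPM in isoform A libraries and 3.46, 3.56 and 3.51 CPM in isoform C libraries, against 2.66 and 2.29 CPM in controls. unc-13, for a protein that primes synaptic vesicles, had 8.4, 13.7 and 10.5 CPM in isoform A libraries and 7.75, 7.78 and 7.69 CPM in isoform C libraries, against 5.93 and 6.18 CPM in controls. For both genes isoform A library 2 was the highest of the 8. Of 33 body wall muscle genes, 4 (12.1%) lay above and 0 below, with a median of 0.49 that was 0.79 for isoform A and 0.12 for isoform C against the same controls. In isoform C library 3 the list's median was -0.0073, within the controls at -0.0648 and 0.0648. The genes above include deb-1, the vinculin gene, and atn-1, the alpha-actinin gene.

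Integrin, basement membrane and gonad migration genes form the list nearest to the known role of vab-3. Of 33 such genes, 6 (18.2%) lay above and 1 (3.03%) below, with a median of 0.28. The median was 0.47 for isoform A and 0.11 for isoform C against the same controls. In isoform C library 3 it was 0.02, within the controls at -0.03 and 0.03. The genes of this list are long, with a median length of 3557 bases, against 1293 bases for all genes tested. With each library's trend with length removed, 5 (15.2%) lay above and 3 (9.09%) below, where 5.83% and 9.51% of all genes did. lag-2, the Notch ligand that the distal tip cell presents to germ cells, had 1.73, 2.21 and 1.88 CPM in isoform A libraries and 1.46, 1.66 and 1.56 CPM in isoform C libraries, against 0.993 and 0.730 CPM in controls. mnr-1, which encodes an epidermal guidance protein for neurons, had 11.2, 12.7 and 11.9 CPM in isoform A libraries and 9.48, 9.21 and 9.82 CPM in isoform C libraries, against 7.41 and 7.24 CPM in controls. Neither passed (edgeR adjusted p = 0.399 and 0.421). The integrin alpha genes, named here after their values were seen, did not separate the groups. ina-1 had 51.4, 54.6 and 54 CPM in isoform A libraries and 52.2, 53.4 and 55.5 CPM in isoform C libraries, against 53.5 and 47.1 CPM in controls. pat-2 had 17.7, 34 and 25.3 CPM in isoform A libraries and 13.3, 15.3 and 10.5 CPM in isoform C libraries, against 10.7 and 11.3 CPM in controls, so that isoform C library 3 lay below both controls. Of 9 tested genes of the PAX family and of the families that act with Pax6 in eye development of other animals, 0 lay on either side.

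A large median did not make a list shared. The cuticle collagen list, which also holds the non-collagens bli-3 and lon-2, had a median log2 difference of 1.57 over 151 genes, yet 13 (8.61%) lay above and 2 (1.32%) below, since isoform A libraries 2 and 3 stood at 2.55 and 2.61 and the other RNAi libraries between -0.18 and 0.50. col-92 had 17.3, 39.2 and 44.8 CPM in isoform A libraries and 10.4, 21.6 and 10.5 CPM in isoform C libraries, against 8.13 and 8.57 CPM in controls. For major sperm protein genes, which are near-identical copies and so uncertain one by one, the median was 1.88 over 31 genes and 0 lay on either side. Their median was -0.21 and -0.46 in libraries numbered 1 of isoform A and isoform C, and 0.85 to 3.32 in the other 4 RNAi libraries.

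More oocyte, germline and eggshell genes lay below both controls than above, by small amounts, and none passed the test. Of 43 germline and oocyte genes, 10 (23.3%) lay below both controls and 2 (4.65%) above, with a median of -0.09. The list's median against the control mean was -0.0735, -0.144 and -0.112 in isoform A libraries and -0.0571, -0.0488 and -0.0379 in isoform C libraries, against -0.00847 and 0.00847 in controls. glp-1, the Notch receptor that keeps germline stem cells dividing, had 358, 338 and 370 CPM in isoform A libraries and 393, 391 and 410 CPM in isoform C libraries, against 428 CPM in both controls. puf-5, for an RNA-binding protein of developing oocytes, averaged 1436 CPM in RNAi libraries, against 1582 CPM in controls, and htp-1, for a meiotic chromosome axis protein, differed by -0.24 ± 0.07. Of 18 eggshell genes, 5 (27.8%) lay below and 0 above. They were the chondroitin proteoglycan genes cpg-1 and cpg-2 and egg-3, egg-4 and egg-5, which act at the transition from oocyte to embryo. egg-3 had 266, 247 and 252 CPM in isoform A libraries and 268, 256 and 277 CPM in isoform C libraries, against 296 and 288 CPM in controls. egg-4 and egg-5 are near-identical copies that may share reads, and at -0.19 and -0.18 they may count as 1 observation.

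For the RNAi machinery, which any double-stranded RNA could engage, the counts changed with the treatment of gene length. Of 57 RNAi and small RNA genes, 5 (8.77%) lay above and 6 (10.5%) below, with a median of -0.01. With each library's trend with length removed, 1 (1.75%) lay above and 13 (22.8%) below, where 5.83% and 9.51% of all genes did. nrde-3, for a nuclear Argonaute protein, had 109, 106 and 117 CPM in isoform A libraries and 122, 123 and 114 CPM in isoform C libraries, against 98.5 and 93.2 CPM in controls. alg-2, for an Argonaute of the microRNA pathway, differed by 0.30 ± 0.07. sid-3, for a tyrosine kinase needed for import of double-stranded RNA, differed by 0.11 ± 0.04, and its position above both controls was lost with plain totals. None of these 3 genes passed. Replication and cell cycle genes were split, with 8 of 52 above (15.4%) and 5 below (9.62%). rnr-1, for the large subunit of ribonucleotide reductase, differed by 0.21 ± 0.05, psf-1, for a part of the replication fork helicase, by -0.22 ± 0.07, and klp-7, a kinesin that shortens microtubules, by -0.16 ± 0.04. The DNA synthesis enzyme thus stood above the controls and the other 2 below, with no call among them. Among 36 lysozyme and saposin-like genes, 2 lay above (5.56%) and 6 below (16.7%), while 73 P450 genes had 5 on each side (6.85%) and 108 C-type lectins 7 above (6.48%) and 9 below (8.33%). Of 20 chitinase and chitinase-like genes, 1 lay on each side (5%), with cht-3 above at a difference of 0.36 ± 0.07. Of 79 ribosomal protein genes, 0 lay above and 1 below, and of 6 vitellogenin genes, 0 on either side. Over 23 further lists, the share above ran from 0 to 21.4% (glia) and the share below from 0 to 10.7% (N-glycan processing), and the median difference from -0.12 (CUB-like dod and related genes) to 0.80 (sperm genes other than major sperm proteins).

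**Figure D3:**
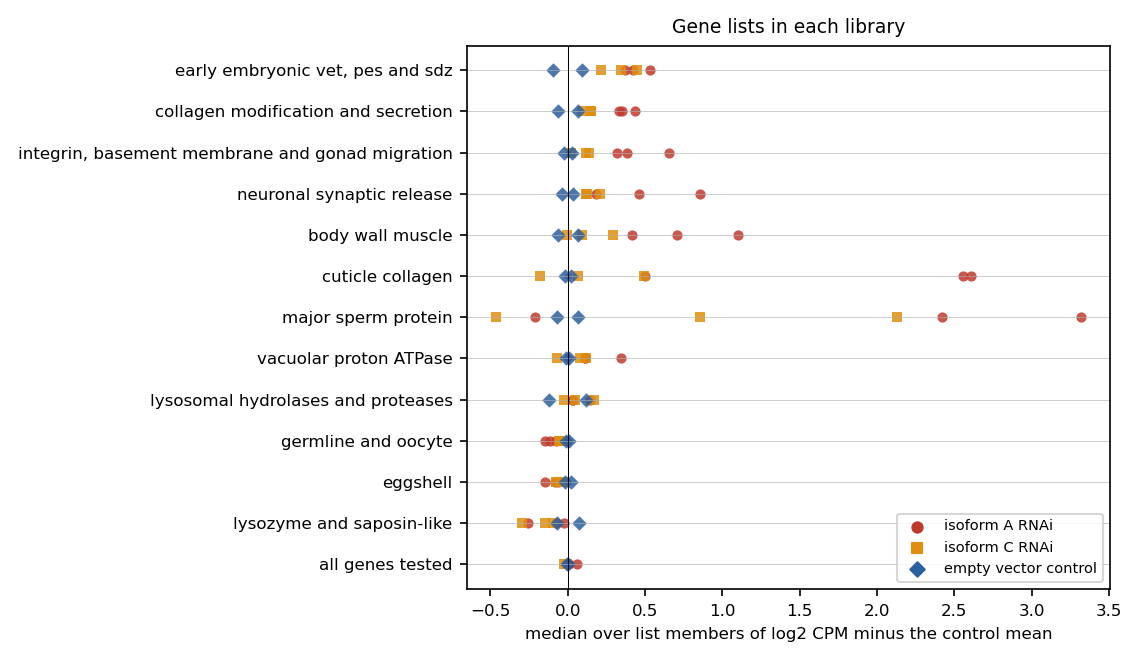
Median over the members of each gene list of log2 CPM minus the control mean, 1 symbol per library, with isoform A libraries as circles, isoform C libraries as squares and controls as diamonds. Early embryonic genes have all 6 RNAi libraries above both controls, germline and oocyte genes have all 6 below, and for cuticle collagens isoform A libraries 2 and 3 stand apart at 2.55 and 2.61.

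Chromosome X carried more of the shared genes above the controls and fewer of those below. It holds 14.3% of the genes tested, 20.6% of the genes above and 4.46% of the genes below. The share of genes below was 7.53% without control 3, 7.97% without isoform A libraries 2 and 3, and 11% of the 27 genes with a gap of at least 1.2-fold, while the share of genes above ran from 19.04 to 22.8% over all alternatives tried. Put the other way, 10.3% of X-linked genes lay above and 2.72% below, while on the autosomes 6.21 to 7.17% lay above and 7.81 to 11.8% below. In the worm germline the X chromosome is largely silent, so X-linked genes are read mostly in somatic cells. Each gene's log2 CPM was set against its control mean, and medians were taken over X-linked and over autosomal genes. The X-linked median minus the autosomal one was 0.147, 0.265 and 0.168 log2 in isoform A libraries. In isoform C libraries it was 0.0556, 0.0878 and 0.00184 log2, against 0.00424 and -0.00424 log2 in controls. Isoform C library 3 was thus within the range of the controls, whose 2 values mirror each other because their mean is the reference. The germline medians given above moved with these values, and their part in the result was not tested.

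Longer genes also lay above the controls more often. The median length, as used by the authors for RPKM, was 1783 bases for genes above, 1210.5 bases for genes below and 1293 bases for all genes. With the genes ranked by length and split into 5 equal classes, 13.8% of the longest class (2172 bases or more) lay above and 5.72% below, and of the shortest class (754 bases or fewer) 3.89% and 9.54%. Each gene's log2 CPM was again set against its control mean, and medians were taken over each class. The median of the longest class minus that of the shortest was 0.0637, 0.0447 and 0.0878 log2 in isoform A libraries. In isoform C libraries it was 0.128, 0.0837 and 0.0887 log2, against -0.00927 and 0.00927 log2 in controls. All 6 RNAi libraries stood above both controls, whose values mirror each other because their mean is the reference. Within each of the 5 classes, the share above was larger on X than on the autosomes, by 18 against 12.9% in the longest and 7 against 3.31% in the shortest. When each library's trend with length was removed, an alternative added after the data were seen, 861 genes lay above and 1405 below, and 0 genes passed the test. With that trend removed, the edgeR adjusted p was 0.0547 for aman-1, 0.0632 for F55B11.3 and 0.137 for vet-2.

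**Figure D4:**
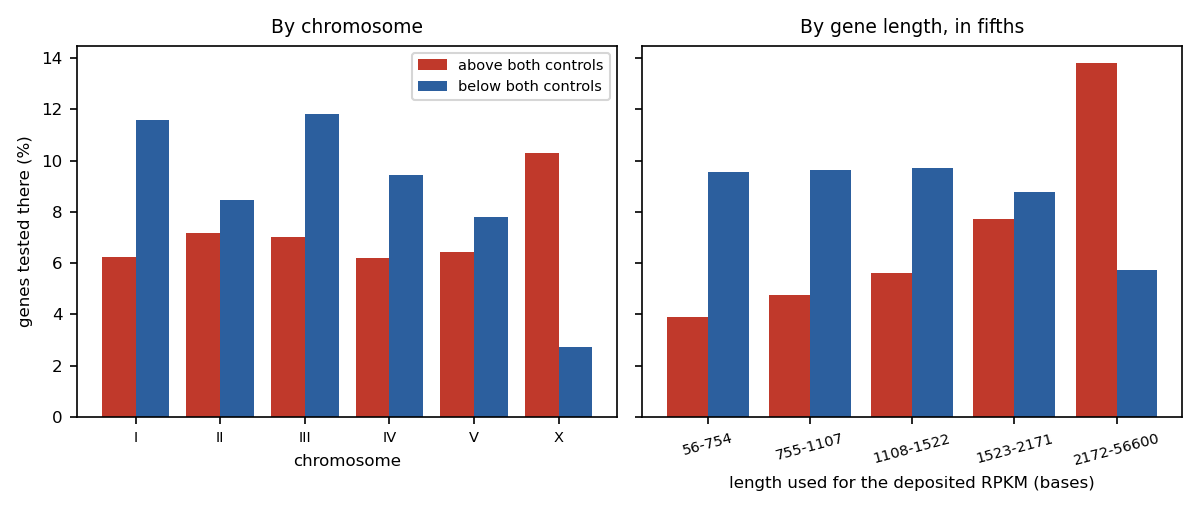
Percent of the genes tested in each class that lay above (red) or below (blue) both controls, by chromosome on the left and by 5 classes of gene length in bases on the right. On X, 10.3% lay above and 2.72% below, and in the longest class 13.8% lay above.

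Some shared genes were neighbours. 4 adjacent protein-coding genes on X (11879110 to 11884042), Y62H9A.3, Y62H9A.4, Y62H9A.5 and Y62H9A.6, all lay above both controls and are named here after their values were seen. Y62H9A.6, called ule-5 in the Ensembl annotation, was the most abundant. Its CPM was 540, 596 and 605 in isoform A and 586, 611 and 606 in isoform C libraries, against 451 and 458 in controls. Y62H9A.4 had 62.8, 83.5 and 54.3 CPM in isoform A libraries and 58.4, 62 and 57.8 CPM in isoform C libraries, against 35.2 and 38.9 CPM in controls. They did not pass with all libraries (edgeR adjusted p from 0.241 to 0.399), and Y62H9A.4 passed without isoform A library 2. A further run of 5 on X (1568677 to 1657104) above the controls comprised H02F09.3, wrt-9, H11E01.3, H11E01.2 and tbx-32. Below the controls, runs of 4 were exos-2, Y73B6BL.23, htp-2 and puf-11 on chromosome IV, and ZK856.7, chpf-1, ZK856.11 and ZK856.16 on chromosome V. The median gaps of these 2 runs were only 0.0496 and 0.0515 log2. Those of the runs on X were 0.283 for the Y62H9A genes and 0.281 for the run of 5. How often such runs arise among shared genes was not tested. Overlapping neighbours could not be told apart without strand.

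The 6 RNAi libraries did not contribute alike. Isoform A library 2 was the farthest from the controls for 49.9% of the genes above and 62.6% of those below, and isoform C library 3 was the nearest for 32.4% and 41.1%. Over the genes above, the median library level against the control mean was 0.35, 0.50 and 0.40 log2 in isoform A libraries and 0.31, 0.36 and 0.27 log2 in isoform C libraries. Over the genes below, it was -0.16, -0.29 and -0.21 log2 in isoform A libraries and -0.13, -0.16 and -0.10 log2 in isoform C libraries.

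A direct comparison of isoform A with isoform C, which does not use the controls' levels, passed for 2 of the 2341 shared genes, where 6 of all 14772 genes (0.0406%) passed. Both lay below the controls. cyp-34A4, a cytochrome P450 gene, had 4.63, 5.45 and 5.2 CPM in isoform A libraries and 0.298, 0.211 and 0.403 CPM in isoform C libraries, against 6.44 and 7.34 CPM in controls. Isoform A exceeded isoform C by 4.07 ± 0.23 log2 (edgeR adjusted p = 0.000648). Its differences from the same controls were -0.43 ± 0.20 for isoform A and -4.50 ± 0.24 for isoform C, so both groups lay below the controls by unequal amounts. chil-12, a chitinase-like gene, had 1.12, 0.759 and 0.978 CPM in isoform A libraries and 0, 0.0469 and 0 CPM in isoform C libraries, against 1.74 and 1.39 CPM in controls. This is 99 counts over the isoform A libraries and 2 over the isoform C libraries, a ratio of 53.5 (exact 95% counting interval 14.4 to 448, counting error only; edgeR adjusted p = 0.0337). With the replicate number as a block, 154 of the shared genes passed (73 above and 81 below the controls), where 1702 of all genes (11.5%) passed.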

How the data were processed

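Whole-worm RNA of 8 libraries was analysed, grouped by treatment label. The library kit was Illumina's TruSeq RNA v2, per the labels' protocols, and keeps no strand. The submitters' processing notes name featureCounts 1.5.0, TopHat2 2.1.0 and bcl2fastq 1.8.4 and the build WBcel235; the annotation release is not given in the sources used here. The authors deposited counts per gene for 46739 genes, and the deposited RPKM values served only to recover the gene length used. The 210 genes without a symbol hold 0.00685 to 0.0434% of a library's counts and were kept. Coordinates come from the Ensembl annotation of WBcel235.

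edgeR 4.0.16 (R 4.3.3) with its filter by the 3 labelled groups kept 14772 genes. TMM factors ran from 0.957 to 1.02. The robust quasi-likelihood F test compared 6 RNAi with 2 control libraries, two-sided, with Benjamini-Hochberg adjustment over all genes at 0.05. A further model had 3 groups. DESeq2 1.42.0 and limma 3.58.1 were alternatives. The size of a log2 difference over the root of its F gave the standard error. An exact permutation test of 6 against 2 libraries cannot go below p = 0.0714 (28 splits), so position alone was not tested. Genes named were vab-3, genes past the test, the widest gaps among shared genes of at least 5 CPM (12 with a class symbol and 4 others per direction) and up to 3 shared members of at least 1 CPM per list with the widest gaps; others, including members listed in full, were chosen after their values were seen. Members and lists were chosen with earlier results of these data known.

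Pairs of libraries within a group differed beyond sampling noise (chi-square per degree of freedom of at least 17.6). Same-numbered isoform A and isoform C libraries deviated together (correlations of 0.605, 0.433 and 0.22 across genes), and this is the only ground for pairing them. Differently numbered libraries were not compared, so these values alone do not show that the numbers mark pairs. The controls share 2 numbers with each RNAi group and were not taken as paired in the main fit. For numbers 1 and 3, their correlations were 0.216 and 0.0253 with isoform A and 0.319 and 0.199 with isoform C.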

Additional observations from a re-analysis of the deposited data

Results flagged for a closer look

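Among the 6 RNAi libraries, single values stood apart for 8 of the genes named, and chance marks about 1 in 20 groups. Isoform A library 2 was the high value for dig-1 (33.1 CPM, the others 17.8 to 21.8), Y62H9A.4 (83.5 CPM, the others 54.3 to 62.8), unc-10, a presynaptic scaffold gene (6.45 CPM, the others 3.02 to 3.91), vha-20 (100 CPM, the others 64.7 to 76.5) and vha-5 (78.8 CPM, the others 34.5 to 49.3). It was the low value for snap-29 (77.2 CPM, the others 87.3 to 89). Isoform C library 2 was the high value for Y44A6C.2 (7.01 CPM, the others 5.12 to 5.72), and isoform A library 1 the low value for Y62H9A.6 (540 CPM, the others 586 to 611). This library 2 of isoform A also lay at one end of the first principal component.

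Below both controls in all 6 RNAi libraries, chil-12 and cyp-34A4 differed between the RNAi groups, by 5.49 and 4.07 log2 for isoform A minus isoform C (edgeR adjusted p = 0.0337 and 0.000648). The value of chil-12 is a fitted one that rests on 2 counts in isoform C libraries.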

How the results depend on the processing

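The count of 3 genes higher and 0 lower at an adjusted p of 0.05 moved with most settings. Higher genes numbered 1 with DESeq2 size factors (aman-1), 0 with limma-voom, 0 with the replicate block (with 1056 genes of either direction at an unadjusted p of 0.05), 0 with the gene length offset and 3 with no filter. DESeq2's Wald test gave 153 higher and 14 lower, and the mean of the 3-group model 6 higher and 2 lower. Leaving out 1 library gave 0 to 4, and 4 only without isoform A library 2. The cause was not tested.

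Leaving out a library can only ease the criterion at fixed scaling. Without 1 library, genes above both controls numbered 1196 to 2696 and genes below 1178 to 2938, the most without a control. Without isoform A libraries 2 and 3 together, they numbered 1561 (10.6%) and 1488 (10.1%), and 1038 and 1112 of the main sets were kept. A gap of at least 1.2-fold left 180 and 27. The X share of genes below was 3.45 to 7.53% on leaving out 1 library, 7.97% without isoform A libraries 2 and 3, and 11% at the 1.2-fold gap. Without isoform A libraries 2 and 3, early embryonic genes were 15 above (36.6%) and 0 below, germline genes 3 (6.98%) and 8 (18.6%), and ribosomal protein genes 0 and 14 (17.7%). With the length offset, where 5.83% of all genes lay above and 9.51% below, germline genes were 0 above and 12 below (27.9%) and replication genes 4 (7.69%) and 6 (11.5%).

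Shared genes that differed between isoform A and isoform C (2) numbered 45 with DESeq2, 154 with the replicate block, 1 to 66 on leaving out 1 library (66 without isoform A library 1) and 1 without isoform A libraries 2 and 3.

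The gap of sid-3 turned to -0.0305 with plain totals and -0.123 with the length offset, and that of nrde-3 to -0.026 with the length offset. On leaving out 1 library, the difference of ina-1 ran from -0.0042 to 0.181 and that of the integrin beta gene pat-3 from -0.0826 to 0.127, and it was -0.0309 for pat-3 with the length offset, with no call among these. With 2 controls, every position rests on both.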
